A study of Mus musculus with 12 samples.

Results

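A set of 7 transcription factors that mark excitatory neurons of the cerebral cortex was followed in striatal RNA from mice. They are Tbr1, Fezf2, Cux2, Emx1, Neurod1, Neurod2 and Neurod6, chosen by name from the gene table, and all 7 were found among its 24421 genes. RNA sequencing was done on bilateral striatum of males of the inbred strain C57BL/6J. VAR denotes the 6 libraries from mice injected with varenicline at 2 mg/kg, and SAL the 6 libraries from mice injected with saline. Varenicline, a smoking cessation drug, is a partial agonist of nicotinic acetylcholine receptors. Mice of both groups were naïve at the start, and all drank 20% ethanol in the Drinking-in-the-Dark test, which is a limited-access session of 2 h beginning 3 h into the dark phase, over 3 cycles of 2 days. In the last 2 cycles the assigned injection was given 30 min ahead of the second day's session, and tissue was taken after the final session. There was no group without ethanol and none without an injection. All mice were injected with saline on the second day of the first cycle, and groups were then formed so that their ethanol intake was equal. The comparison is thus that of varenicline with its vehicle, in mice that drank.

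Excitatory neurons of the cortex arise in the pallium, the dorsal part of the embryonic forebrain, whereas striatal projection neurons are inhibitory and arise below it. Emx1 is a homeodomain factor of the pallium, and the Neurod factors are basic helix-loop-helix activators that drive and maintain excitatory differentiation. Layer identity is then set by factors that oppose each other, with Cux2 in the upper layers, Fezf2 in subcortically projecting neurons of layer 5 and Tbr1 in layer 6. The striatum lies directly beneath the deep layers and the white matter of the cortex.

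The upstream sequences of 3 of the factors are shown because each holds a match to a site that factors of this group can bind. Motifs were searched on both strands in the 250 bases before the RefSeq start of each gene, using the start that the count table also gives (RefSeq, build GRCm38.p6). Capitals mark CAGATG or its reverse complement CATCTG, an E-box that Neurod factors bind, and TAATTA, a palindromic homeodomain site. Each sequence is written 5′ to 3′ on the strand of its gene.
Tbr1 upstream, chr2:61804203-61804452, plus strand: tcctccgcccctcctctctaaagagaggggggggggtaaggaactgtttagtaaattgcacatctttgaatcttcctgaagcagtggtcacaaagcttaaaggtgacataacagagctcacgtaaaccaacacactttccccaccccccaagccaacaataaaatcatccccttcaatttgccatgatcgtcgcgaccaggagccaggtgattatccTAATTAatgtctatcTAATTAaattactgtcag
Cux2 upstream, chr5:122047826-122048075, minus strand: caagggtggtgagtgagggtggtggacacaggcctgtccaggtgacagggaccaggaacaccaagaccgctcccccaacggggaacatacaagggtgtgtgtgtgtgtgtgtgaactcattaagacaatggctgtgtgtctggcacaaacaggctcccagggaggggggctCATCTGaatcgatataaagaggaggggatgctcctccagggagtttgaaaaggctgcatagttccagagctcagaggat
Neurod2 upstream, chr11:98329646-98329895, minus strand: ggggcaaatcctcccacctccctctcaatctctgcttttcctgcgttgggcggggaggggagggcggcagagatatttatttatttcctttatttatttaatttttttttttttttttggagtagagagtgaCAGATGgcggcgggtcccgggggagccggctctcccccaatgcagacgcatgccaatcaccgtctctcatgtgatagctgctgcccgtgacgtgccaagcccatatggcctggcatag
CAGATG was present in 2 of the 7 members' windows and in 14.4% of all 32851 promoter windows of the same length. TAATTA was present in 1 of the 7 and in 4.84% of all windows, and it occurs at 2 places in the Tbr1 window. The E-box CAGCTG (13.0% of all windows) and the T-box site AGGTGTNA (2.68% of all windows) were found in 0 of the 7. These matches describe the letters of the windows and say nothing about binding.

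Library totals ran from 13340420 to 27917715 counts, so that 3 counts, the limit that a count of 0 allows, equalled 0.109 to 0.221 CPM, counts scaled to a common library total; this limit covers counting error only. CPM were computed on library sizes scaled by TMM, a method that equalises the bulk of genes between libraries. Markers of striatal projection neurons, all 14 detected, summed to between 6679 and 10830 CPM in the VAR libraries and between 6157 and 9779 CPM in the SAL libraries, so the labelled tissue was present throughout. A cortical score was the mean log2 CPM of 8 genes chosen as excitatory neuron markers that mark no single layer and include no member. It ran from 3.88 to 6.06 in VAR and from 5.16 to 6.30 in SAL. The library VAR 6 stood apart from VAR 1 to 5, whose scores were at most 5.04, and lay inside the SAL range. The calls of the members and of the marker lists are given with and without it. Because VAR 6 was picked out by values of cortical genes, calls made without it are no separate support for a difference.

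All 7 factors averaged lower in the VAR libraries than in the SAL libraries, and none passed an adjusted p of 0.05 in the test over all genes. The VAR means were between 37.9% of the SAL mean for Emx1 and 69.6% for Neurod1. The fitted log2 fold changes, VAR minus SAL, ran from -1.41 for Emx1 to -0.53 for Neurod1. By comparison, 47.7% of all 15148 genes tested were lower in VAR by any amount, and the median log2 fold change of all genes was 0.0074. At an unadjusted p under 0.05 in edgeR's quasi-likelihood test, 6 of the 7 were lower, all but Neurod1, against 9.63% of all tested genes. At an adjusted p of 0.05 edgeR called 0 of the 7, and 0% of all genes were called lower. DESeq2 also called 0 of the 6 members to which it gave an adjusted p, where 1.98% of all genes were called lower. In limma-voom with weights per sample 7 of 7 passed, where 9.04% of all genes did on the lower side. That fit gave VAR 6 a weight of 0.411, the lowest of the VAR libraries. Its calls are therefore not separate from those made without VAR 6. In a bulk sample, fewer cells of a type and less RNA per cell cannot be told apart.

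**Figure D1:**
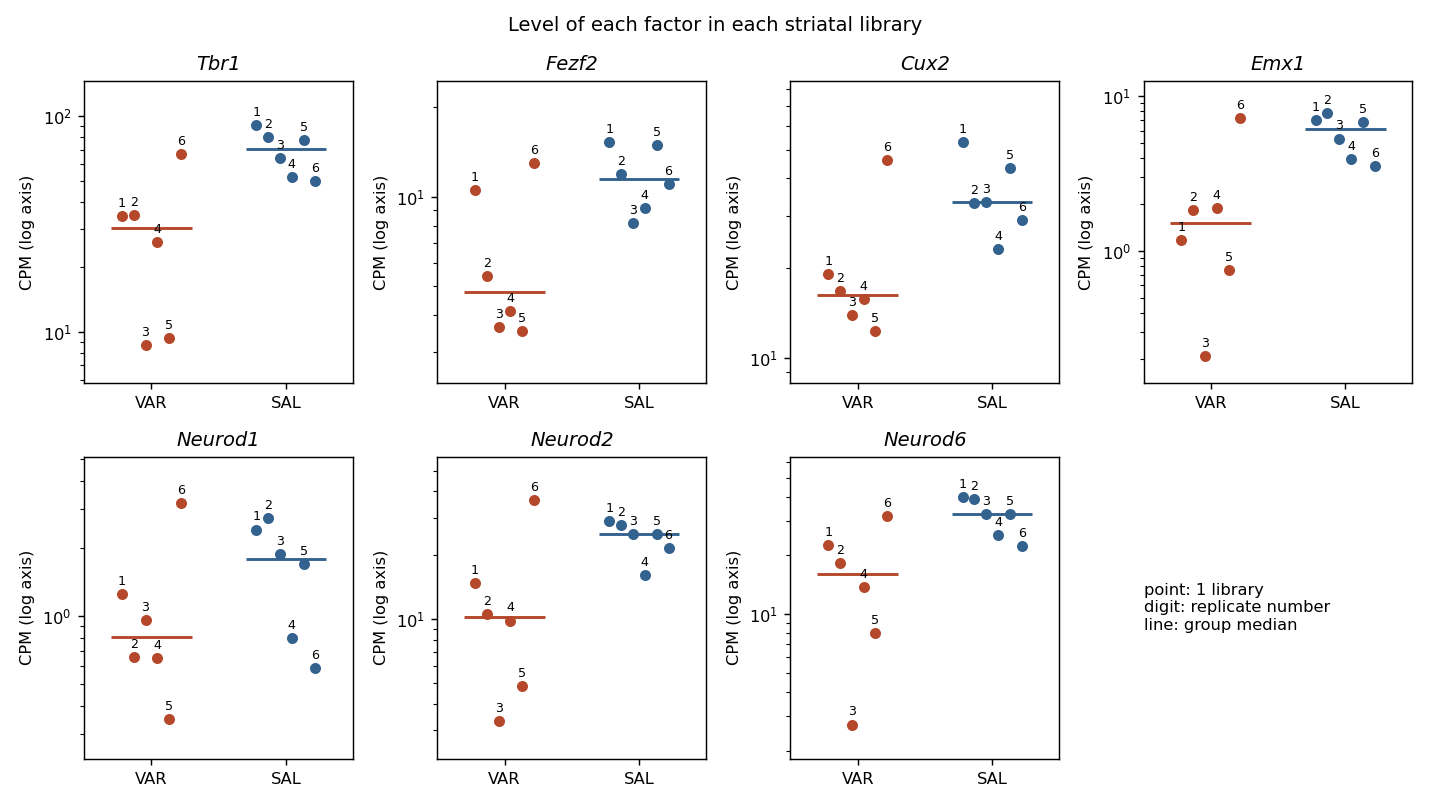
CPM of each factor on a log axis in each of the 12 libraries, VAR left and SAL right; digits are replicate numbers and lines are group medians. For every factor VAR 6 is the highest VAR library and lies at or above the SAL range's lower end, while VAR 3 and VAR 5 are among the lowest for most factors.

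Tbr1 (ENSMUSG00000035033, mm10, chr2:61804453-61814113, plus strand, 6 exons) is the T-box factor that specifies layer 6 corticothalamic neurons. It ran from 8.66 to 66.8 CPM in VAR with a median of 30.2, and from 49.9 to 91.2 CPM in SAL with a median of 70.8. All VAR libraries but VAR 6 were below the lowest SAL library, and VAR 3 and VAR 5, at 8.66 and 9.33 CPM, were well below the other VAR libraries. The means were 30.0 ± 21.4 CPM in VAR and 69.3 ± 16.5 CPM in SAL (SD, n = 6 each). edgeR gave a log2 fold change of -1.21 (SE 0.37; adjusted p = 0.152), the smallest p of the 7 factors, which ranked 528 of all genes tested. Without VAR 6 it was -1.61 (edgeR adjusted p = 0.00452; 0.00225 to 0.963 over all alternatives tried).

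Fezf2 (ENSMUSG00000021743, chr14:12341892-12345865, minus strand, 5 exons) is a zinc finger factor required for corticospinal neurons of layer 5. It ran from 3.53 to 13.0 CPM in VAR with a median of 4.77, and from 8.14 to 15.3 CPM in SAL with a median of 11.5. The groups overlapped through VAR 1, at 10.6 CPM, and VAR 6, while the other 4 VAR libraries were below every SAL library. The means were 6.71 ± 4.06 CPM in VAR and 11.8 ± 2.94 CPM in SAL (SD, n = 6 each). edgeR gave a log2 fold change of -0.83 (SE 0.30; adjusted p = 0.193).

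Cux2 (ENSMUSG00000042589, chr5:121860216-122047825, minus strand, 23 exons) is a homeodomain factor of upper-layer neurons that shapes their dendrites and spines. Its VAR libraries ran from 12.3 to 46.1 CPM with a median of 16.3, and its SAL libraries from 23.1 to 53.0 CPM with a median of 33.2. VAR 1 to 5 lay close together, between 12.3 and 19.1 CPM, all below the lowest SAL library, and VAR 6 lay inside the SAL range. The means were 20.7 ± 12.7 CPM in VAR and 35.8 ± 10.7 CPM in SAL (SD, n = 6 each). edgeR gave a log2 fold change of -0.79 (SE 0.29; adjusted p = 0.191).

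Emx1 (ENSMUSG00000033726, chr6:85187931-85204463, plus strand, 3 exons) is the pallial homeodomain factor whose promoter is widely used to direct Cre to cortical excitatory neurons. It ran from 0.209 to 7.25 CPM in VAR with a median of 1.51, and from 3.54 to 7.86 CPM in SAL with a median of 6.11. VAR 3 held 5 counts of Emx1 and VAR 5 held 13, whereas the lowest SAL library held 78. The means were 2.19 ± 2.56 CPM in VAR and 5.77 ± 1.78 CPM in SAL (SD, n = 6 each). The log2 fold change of -1.41 (SE 0.51; edgeR adjusted p = 0.192) was the largest of the 7 in size, and without VAR 6 it was -2.27 (edgeR adjusted p = 0.00160; 0.00160 to 0.957 over all alternatives tried).

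The Neurod factors were unequal in level. Neurod2 (ENSMUSG00000038255, chr11:98325417-98329645, minus strand, 2 exons), which acts in postmitotic excitatory neurons and in the maturation of their synapses, ran from 3.31 to 36.3 CPM in VAR with a median of 10.2, and from 16.2 to 28.8 CPM in SAL with a median of 25.2. VAR 6 had the highest value of all 12 libraries, and VAR 1 to 5 were below every SAL library. The means were 13.3 ± 12.01 CPM in VAR and 24.1 ± 4.62 CPM in SAL (SD, n = 6 each), with a log2 fold change of -0.88 (SE 0.41; edgeR adjusted p = 0.288) that was -1.49 without VAR 6. Neurod6 (ENSMUSG00000037984, chr6:55677819-55681263, minus strand, 2 exons), a related factor of postmitotic pallial neurons, ran from 2.72 to 31.7 CPM in VAR with a median of 16.1, and from 22.3 to 40.0 CPM in SAL with a median of 32.5. VAR 1 and VAR 6 reached the SAL range, and VAR 3 was far below all other libraries. The means were 16.2 ± 10.4 CPM in VAR and 31.9 ± 6.996 CPM in SAL (SD, n = 6 each), with a log2 fold change of -0.99 (SE 0.37; edgeR adjusted p = 0.199).

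Neurod1 (ENSMUSG00000034701, chr2:79452641-79456636, minus strand, 2 exons) acts earlier, in newborn neurons, and persists in the dentate gyrus, and it was the scarcest of the 7. It ran from 0.348 to 3.20 CPM in VAR with a median of 0.810, and from 0.589 to 2.74 CPM in SAL with a median of 1.798. The groups overlapped widely, since SAL 4 and SAL 6 were also low, at 0.798 and 0.589 CPM. The means were 1.18 ± 1.04 CPM in VAR and 1.69 ± 0.860 CPM in SAL (SD, n = 6 each), and edgeR gave a log2 fold change of -0.53 (SE 0.48; adjusted p = 0.596). In GENCODE vM21 the exons of Neurod1 share 86 bases with Cerkl on the same strand and 154 bases with Gm26755 on the opposite strand, so some of its reads could belong to those genes. The exons of the other 6 factors overlapped 0 exons of other genes there.

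The highest VAR value was 3.68 times the lowest for Fezf2 and 34.6 times for Emx1, whereas in SAL this ratio ran from 1.78 for Neurod2 to 4.65 for Neurod1. The ratio was larger in VAR than in SAL for 7 of the 7 factors with VAR 6 and for 5 without it. Among VAR 1 to 5 it was 9.07 for Emx1, and it was smaller than in SAL for Cux2, at 1.55 in VAR and 2.29 in SAL, and for Neurod1, at 3.61 in VAR and 4.65 in SAL. The 7 factors did not single out the same lowest library: VAR 3 was the lowest VAR library for Tbr1, Emx1, Neurod2 and Neurod6, and VAR 5 for Fezf2, Cux2 and Neurod1. As a percent of the SAL mean, the members in VAR 3 ran from 3.63% for Emx1 to 56.9% for Neurod1, with Fezf2 at 31.0% and Cux2 at 38.8%. In VAR 5 they ran from 13.1% for Emx1 to 34.4% for Cux2. VAR 4 was more even, from 32.9% for Emx1 to 44.1% for Cux2. In VAR 1, Emx1 was at 20.5% and Fezf2 at 89.7%. VAR 6 ran from 96.4% for Tbr1 to 189% for Neurod1, and 2 factors, Neurod1 and Neurod2, were above every SAL library there.

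**Figure D2:**
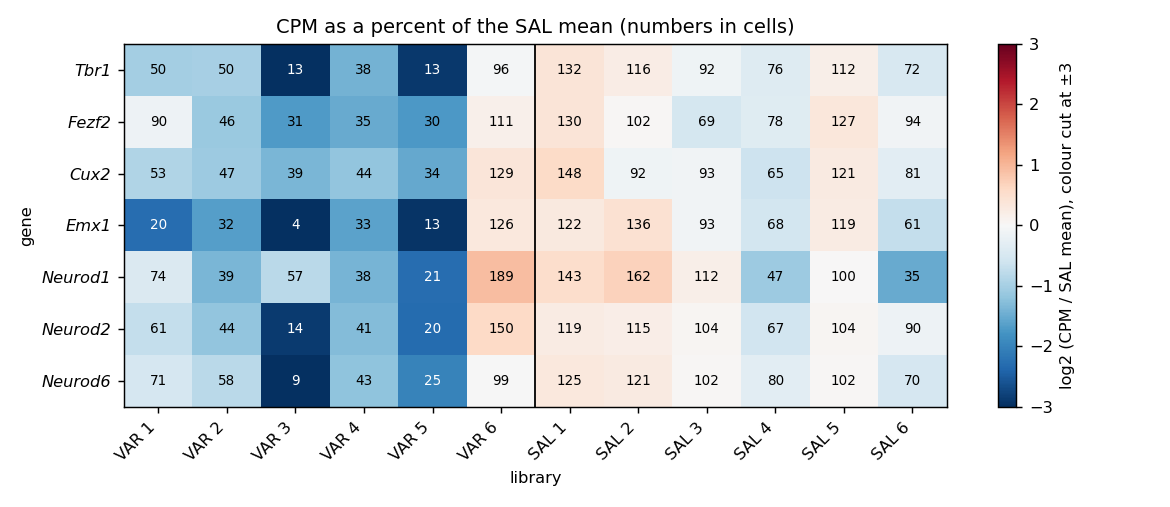
CPM of each factor (rows) in each library (columns) as a percent of that factor's SAL mean, printed in the cells and coloured on a log2 scale. Emx1 has the lowest percent in each of VAR 1 to 5, from 32.9% in VAR 4 down to 3.63% in VAR 3.

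VAR 6 was the highest VAR library for 7 of the 7 factors, so its removal lowers their VAR means and is no separate support for a difference. Leaving it out changed the calls. edgeR then called 6 of the 7 factors lower, all but Neurod1, against 7.14% of all genes, with adjusted p from 0.00108 for Cux2 to 0.0235 for Neurod6; over all alternatives tried these ran from 0.00108 to 0.991 for Cux2 and from 0.00517 to 0.997 for Neurod6. Neurod2 had a log2 fold change of -1.49 there (edgeR adjusted p = 0.00321; 0.00286 to 0.981 over all alternatives). Those of Fezf2, Cux2 and Neurod6 were -1.13, -1.19 and -1.30. Neurod1 had -1.12 (edgeR adjusted p = 0.0886; 0.0427 to 0.844 over all alternatives). VAR 1 to 5 were all below the lowest SAL library for 4 of the 7 factors, Tbr1, Cux2, Emx1 and Neurod2, as they were for 5.29% of all genes tested. With VAR 6 included this held for 0 of the 7, and for 0.33% of all genes. When SAL 6, the SAL library with the lowest cortical score, was left out instead, edgeR called 0 of the 7 and 0% of all genes lower. In limma-voom, which called all 7, the sample weights were lowest for SAL 6 at 0.341 and VAR 6 at 0.411, where VAR 4 had 2.30. The limma-voom calls, made with little weight on VAR 6, are thus no separate support either.

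The cortical score moved with these results. In VAR 1 to 5 it was at most 5.04, and in every SAL library at least 5.16, so score and group are largely confounded. A fit with the score removes any difference that the members share with the score's genes. Smaller fold changes were thus built in, and the fit cannot tell fewer cortical cells from less RNA per cell. Once the score was added to the edgeR model, the log2 fold changes were -0.23 (SE 0.23) for Tbr1, -0.14 (SE 0.25) for Fezf2, -0.033 (SE 0.17) for Cux2 and -0.26 (SE 0.32) for Emx1. Those of Neurod6, Neurod2 and Neurod1 were -0.011 (SE 0.26), 0.078 (SE 0.20) and 0.68 (SE 0.38). No member passed (edgeR adjusted p from 0.795 to 0.997). At an unadjusted p under 0.05 in edgeR, 0 of the 7 were lower, against 2.88% of all genes, down from 9.63% without the score. By any amount 5 of the 7 were lower, as were 50.6% of all genes. Relative to the score within each library, Emx1 stood at -4.19 ± 0.88 log2 units in VAR and at -3.30 ± 0.27 in SAL (SD, n = 6 each). Tbr1 stood at -0.16 ± 0.53 in VAR and 0.28 ± 0.23 in SAL. Cux2 stood at -0.50 ± 0.24 in VAR and -0.68 ± 0.33 in SAL, and Fezf2 at -2.15 ± 0.30 in VAR and -2.27 ± 0.49 in SAL. Neurod1 stood at -4.69 ± 0.56 in VAR and -5.14 ± 0.45 in SAL. Neurod2 stood at -1.41 ± 0.46 in VAR and -1.22 ± 0.28 in SAL, and Neurod6 at -1.06 ± 0.70 in VAR and -0.83 ± 0.17 in SAL. These 7 differences were not tested and are on a scale with a prior count of 2, which pulls scarce genes together.

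**Figure D3:**
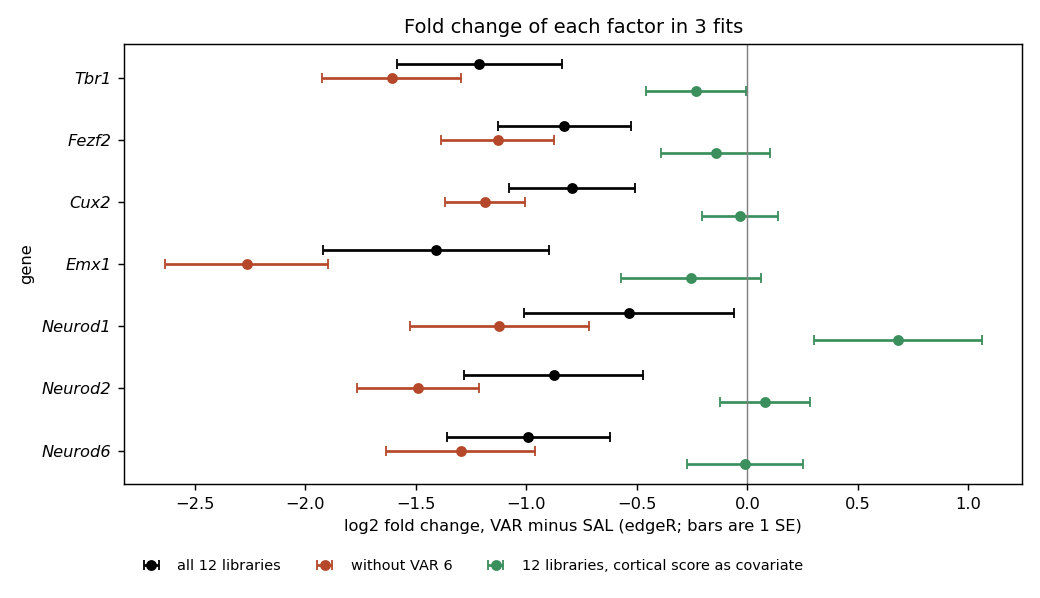
Log2 fold change, VAR minus SAL, of each factor in edgeR with all 12 libraries, without VAR 6 and with the cortical score added to the model; bars are 1 standard error. The values without VAR 6 lie from -2.27 for Emx1 to -1.12 for Neurod1, and those with the score from -0.26 to 0.68.

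The upper-layer factor Cux2 was then set against the deep-layer factors Tbr1 and Fezf2 within each library. How much of the RNA of these factors came from cells outside the cortex was not tested. The differences therefore compare genes and not layers. In VAR 3, the library with the lowest cortical score, Cux2 was at 38.8% of its SAL mean and Tbr1 at 12.5%. Cux2 minus Tbr1, in log2 CPM, was 0.68 in VAR 3 and 0.40 in VAR 5, and in the other 4 VAR libraries it lay between -1.05 and -0.53. In SAL it lay between -1.28 and -0.78. Cux2 counts thus exceeded Tbr1 counts in 2 of the 6 VAR libraries, those with the least Tbr1, and in 0 of the 6 SAL libraries. The means were -0.34 ± 0.71 in VAR and -0.97 ± 0.21 in SAL (SD, n = 6 each), and their difference of 0.62 did not pass (two-sided exact permutation p = 0.0541; adjusted p = 0.108 over the 2 pairs compared). It passed on log2 of the deposited FPKM plus 1 and without VAR 2, each with an exact adjusted p of 0.0173, and over the alternatives tried the adjusted p ran from 0.0173 to 0.277.

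Cux2 minus Fezf2 was 1.91 in VAR 3 and 1.78 in VAR 5, inside the SAL range of 1.33 to 2.03. The single low value was that of VAR 1, at 0.85, the library in which Fezf2 was 89.7% of its SAL mean. The means were 1.65 ± 0.40 in VAR and 1.59 ± 0.27 in SAL (SD, n = 6 each), a difference of 0.061 (two-sided exact permutation p = 0.786; adjusted p = 0.786). This does not show that the 2 factors move alike. Whether the Tbr1 and Fezf2 differences themselves differ was not tested.

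**Figure D4:**
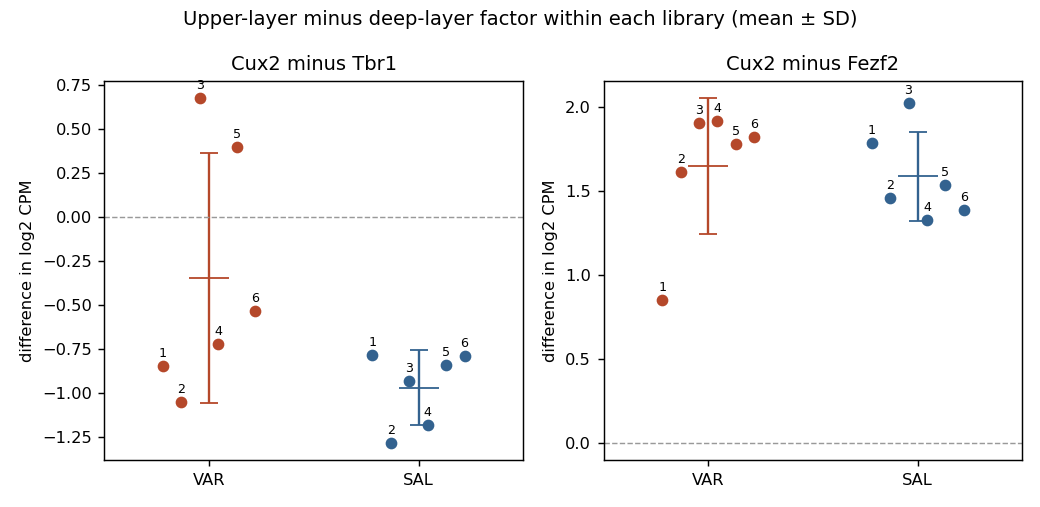
Difference in log2 CPM of Cux2 minus Tbr1 (left) and Cux2 minus Fezf2 (right) in each library, VAR left of SAL; digits are replicate numbers and bars are mean ± SD. VAR 3 and VAR 5 lie above 0 for Cux2 minus Tbr1, at 0.68 and 0.40, and inside the SAL range for Cux2 minus Fezf2.

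Levels of different genes can be compared per kb of exon. In CPM per kb, the order in SAL was Tbr1 at 17.4 ± 4.15, Neurod6 at 14.8 ± 3.25, Neurod2 at 7.69 ± 1.47, Cux2 at 7.01 ± 2.10, Fezf2 at 5.10 ± 1.28, Emx1 at 4.92 ± 1.51 and Neurod1 at 0.678 ± 0.345 (SD, n = 6). The mean levels in VAR had the same order, from 7.54 ± 5.38 for Tbr1 and 7.52 ± 4.83 for Neurod6 to 1.87 ± 2.18 for Emx1 and 0.472 ± 0.415 for Neurod1. In SAL, the steps from Neurod6 to Neurod2 and from Emx1 to Neurod1 were free of overlap between libraries; other neighbours overlapped. Within libraries, Tbr1 was above Neurod6 in 4 of 6 VAR and 6 of 6 SAL libraries, and Cux2 was above Fezf2 in 5 of 6 VAR and 6 of 6 SAL libraries. Neurod2 was above Cux2 in 4 of 6 libraries of each group, and Fezf2 was above Emx1 in 5 of 6 VAR and 4 of 6 SAL libraries. Tbr1 had the highest level per kb in 3 of 6 VAR and 6 of 6 SAL libraries. In VAR 3 it was Cux2, at 2.72 CPM per kb, and in 2 other VAR libraries it was Neurod6. Neurod1 had the lowest level in all libraries but VAR 3, where Emx1 was lowest.

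The factors also differed in which profiles they shared. Likeness was measured as the root mean square difference of log2 CPM over the 12 libraries after centring each gene on its own mean, where a smaller value means a more similar profile. Among the members, Tbr1 and Neurod2 were the closest pair, at 0.27, followed by Fezf2 and Cux2 at 0.31, and Emx1 and Neurod1 were the farthest apart, at 1.08. Out of 14153 genes with a mean of at least 1 CPM, the closest to Tbr1 was Medag at 0.18, with Nr4a2 also at 0.18 and Ipcef1 at 0.20. The closest to Cux2 was Shank1 at 0.15 and the closest to Fezf2 was Hs3st2 at 0.18. Cck was the closest to Neurod2 at 0.18. The closest genes to Emx1, Rtn4r, and to Neurod1, BC030499, were both at 0.37, and that to Neurod6, Serpinb8, at 0.29. For comparison, the median over all genes was 1.10 for Tbr1, 0.71 for Cux2, 1.43 for Emx1 and 0.90 for Neurod1. The measure grows with a factor's own spread between libraries, so the same value for different factors does not mean equal likeness. These profiles include the difference between the groups.

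Other genes of the same layers were examined next. Of 12 other upper-layer markers, all tested, 8 were lower and 4 higher in VAR, 2 lower and 1 higher of them with an unadjusted p below 0.05, and a median log2 fold change of -0.13. Unc5d, a netrin receptor gene, had a log2 fold change of -0.55, and Pou3f3, a POU factor, had 0.16. Cux1, the paralog of Cux2, averaged 112 ± 13.7 CPM in VAR and 118 ± 8.63 CPM in SAL, a log2 fold change of -0.068. None of the 12 passed in edgeR over all genes; without VAR 6, 3 were called lower and 0 higher, where 7.14% and 3.55% of all genes were.

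Of 16 other deep-layer markers, all tested, 10 were lower and 6 higher in VAR, 9 lower and 2 higher of them with an unadjusted p below 0.05, and a median log2 fold change of -0.46. Rprm, a layer 6 marker, averaged 12.1 ± 5.92 CPM in VAR and 28.3 ± 6.77 CPM in SAL (SD, n = 6 each), a log2 fold change of -1.24. Nr4a2, a nuclear receptor gene of layer 6b and claustrum, had -1.25, Sox5, which controls deep-layer fate, had -0.55, and Hs3st4 had -0.30. The genes on the higher side at that threshold, named after their values were seen, were Crym at 0.35 and Etv1 at 0.20. Bcl11b, which acts with Fezf2 in cortex and is also abundant in striatal projection neurons, had 0.17. How much of the RNA of the other upper-layer and deep-layer markers came from cells outside the cortex was not tested. The medians of these lists therefore do not compare the layers. None of the 16 passed in edgeR over all genes; DESeq2 called Sox5, Rprm and Hs3st4 lower, where 1.98% of all genes were. Without VAR 6 edgeR called 6 of the 16 lower and 2 higher, where 7.14% and 3.55% of all genes were.

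The 8 genes of the cortical score were lower in 7 cases, each at an unadjusted p under 0.05, with a median log2 fold change of -1.18, and their summed level ran from 374 to 1357 CPM in VAR and from 891 to 1694 CPM in SAL. Sv2b, a synaptic vesicle gene, had -0.51, which DESeq2 called, and Mef2c, an activity-regulated factor, had -0.49. These were the smallest decreases among the 7 lower genes, where Slc17a7 had -1.23 and Rtn4r had -1.14. None of the 8 passed in edgeR over all genes, and without VAR 6 edgeR called 7 lower, where 7.14% of all genes were. The exception was Emx2, the paralog of Emx1, which averaged 7.86 CPM in VAR and 6.75 CPM in SAL with a log2 fold change of 0.21 (SE 0.13). Emx2 enters the cortical score like the other genes, and a score without it was not tried. Of the 10 paralogs listed, 3 had enough counts to be tested. One of these, Bhlhe22, a helix-loop-helix repressor related to the Neurod family, averaged 2.99 ± 1.99 CPM in VAR and 7.32 ± 3.72 CPM in SAL, a log2 fold change of -1.29 (edgeR adjusted p = 0.148), and was called lower without VAR 6.

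The Neurod factors bind DNA together with E proteins, which Id proteins sequester. Of 7 such genes, 5 were higher and 2 lower, 2 higher and 1 lower of them with an unadjusted p below 0.05, and 0 past the threshold in edgeR. The inhibitor gene Id2 averaged 73.3 ± 10.1 CPM in VAR and 96.6 ± 11.2 CPM in SAL (SD, n = 6 each), a log2 fold change of -0.40, which DESeq2 called. Id4 had 0.31, the E protein gene Tcf12 had 0.14 and Id1 had 0.24. Without VAR 6 edgeR called Id2 lower and Id4 and Tcf12 higher, where 7.14% of all genes were called lower and 3.55% higher. Of 4 genes known as cortical targets of Tbr1, 2 were higher and 2 lower, none of them with an unadjusted p below 0.05, with Bcl11a at -0.16, Grin2b at -0.19, Reln at 0.088 and Auts2 at 0.0082. Without VAR 6 edgeR called Bcl11a lower, at -0.22. Of 4 known targets of Fezf2, Slc17a7, the vesicular glutamate transporter gene, was lower at that threshold, with a log2 fold change of -1.23. Slc17a7 is also a gene of the cortical score, so this is the value given there. Ephb1, Crim1 and Bcl11b were at -0.074, 0.014 and 0.17. Slc17a7 was called lower without VAR 6, at -1.80, where 7.14% of all genes were. The Tbr1 targets averaged from 41.1 CPM for Grin2b to 153 CPM for Reln in VAR, where Tbr1 averaged 30.0 CPM. How much of the RNA of the E protein, Id and target genes came from cells without the 7 factors was not tested. Their values therefore do not show whether targets follow the factors.

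Markers of neighbouring regions were set beside the members. Of all genes tested, 52.3% were higher in VAR by any amount and 7.26% were higher at an unadjusted p under 0.05, against 47.7% and 9.63% lower. Claustrum markers were lower in 5 of 5 cases, 4 at that threshold, and summed to between 201 and 304 CPM in VAR and between 246 and 381 CPM in SAL; Nr4a2 is also on this list, Ntng2 had a log2 fold change of -0.95 and Gnb4 -0.40. Thalamic markers were lower in 5 of 5 tested cases, 1 of them, Slc17a6 at -0.78, at that threshold, and hippocampal markers were higher in 4 of 5 cases, 0 at that threshold. Projection neuron markers were higher in 14 of 14 cases, 5 at that threshold, and in VAR 6 their sum was the lowest of the VAR group at 6679 CPM. Septal and pallidal markers were higher in 8 of 8 cases, 7 at that threshold, and summed to between 44.2 and 125 CPM in VAR and between 35.8 and 57.3 CPM in SAL. Interneuron markers were higher in 3 and lower in 5 of 8 cases, with 2 and 3 at that threshold. The 2 are Gad1 and Gad2, which striatal projection neurons also express, and of the other 6 genes 5 were lower. Oligodendrocyte and astrocyte markers were higher in 8 of 8 and 7 of 7 cases, 3 and 2 of them at that threshold. Microglial, endothelial, and ependymal and choroid plexus markers had 4 of 6, 2 of 5 and 6 of 6 higher, with 0, 1 and 0 at that threshold. None of these genes passed in edgeR over all genes. Without VAR 6 edgeR called 4 claustrum markers lower, 5 projection neuron, 2 septal and pallidal, 4 oligodendrocyte, 2 astrocyte and 1 endothelial markers higher, and 2 interneuron markers higher and 3 lower. It then called 0 thalamic, hippocampal, microglial, or ependymal and choroid plexus markers. Of all genes, 7.14% were called lower and 3.55% higher in that fit. DESeq2 called 1 of the claustrum markers lower, Gnb4, and 1 each of the oligodendrocyte, astrocyte and endothelial markers higher, Cldn11 at 0.26, Slc4a4 at 0.21 and Slco1a4 at 0.31, where 1.11% of all genes were called higher; these 3 were named after their values were seen. No gene of these lists was at 0 counts in all libraries, and the part of these tissues in the members' values was not tested.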

How the data were processed

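Gene counts deposited by the authors, whole numbers that were not normalized, were the main values, 1 column per library. The authors also deposited FPKM values and a signal of scaled counts named for Cuffnorm, used here only as alternatives. Exon lengths in bases, another column, came from the same count table per the file headers. The submitters' processing notes name build mm10 and, with no order or role, TopHat2, featureCounts, Trimmomatic, Cuffnorm, Cuffdiff, FastQC and DESeq2. Their versions, the annotation and whether strand was used: not given in the sources used here. Groups came from the treatment labels. Replicate numbers follow deposition order and pair nothing. The labels do not say whether each library is 1 animal, so a p-value here reflects only the spread among libraries, which may be technical.

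Genes passing filterByExpr, 15148 of 24421, were tested with edgeR 4.0.16 (TMM, quasi-likelihood F test, Benjamini-Hochberg over all tested genes, threshold 0.05) in R 4.3.3. All 7 members passed the filter. Log2 CPM used a prior count of 2. Within-library differences were tested by exact permutation, two-sided, with all 924 assignments. Alternatives were median-ratio size factors, DESeq2 1.42.0, limma-voom with sample weights and limma on log2 FPKM plus 1 or 0.1 (genes of at least 0.1 FPKM in 6 libraries) or log2 Cuffnorm signal plus 1 (at least 10), all limma 3.58.1. Others were no count filter, at least 1 CPM in 6 libraries, the cortical score as covariate, and each library left out. Chosen after seeing the data were the spread without VAR 6, the covariate without VAR 6 and DESeq2 with the covariate. Genes named in the 18 lists are mainly the 4 with the smallest p; a gene among them is not reported here. The members and lists were chosen with earlier results of these data known. Tested on simulated data for this comparison, with 200 of 15148 genes changed, edgeR recovered 88% of genes changed 1.5-fold and 96% at 2-fold, with 15 false calls. The changed genes were drawn at random from the more abundant genes, and each gene was simulated independently of the others. These shares therefore do not give the chance of calling the members, which vary together between libraries and include scarce genes. No library was a repeat of another within counting noise (66 pairs, lowest chi-square per degree of freedom 5.71).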

Additional observations from a re-analysis of the deposited data

Results flagged for a closer look

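Each group's 6 values were examined for a library far from the other 5, in 32 sets, where chance gives about 1.6. Cux2 in VAR 6 had 5.53 log2 CPM, where the other VAR libraries lay between 3.64 and 4.26. Cux2 minus Fezf2 in VAR 1 was 0.851, where the others lay between 1.61 and 1.91. Neurod6 minus the cortical score in VAR 3 was -2.39, where the others lay between -1.09 and -0.49.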

How the results depend on the processing

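No paired analysis was possible because every library title carries the same replicate number. In edgeR 0 genes passed, where 1100 were higher and 1458 lower with an unadjusted p below 0.05, against 387 in DESeq2, 2099 in limma-voom with sample weights and 24 in DESeq2 with the cortical score as covariate. Leaving out each library gave 0 to 1628 genes, the highest without VAR 6 and 4 without VAR 2. The count of members called lower was 7 with limma-voom, where 9.04% of all genes were called lower. It was 0 to 6 with each library left out, the highest without VAR 6, where 7.14% of all genes were called lower. With the cortical score as covariate the sign turned for Neurod1 (0.68) and Neurod2 (0.078). With that covariate in DESeq2 it turned for Neurod1 (0.68), Neurod2 (0.077) and Neurod6 (0.037). With that covariate and without VAR 6 it turned for Neurod1 (0.64) and Neurod6 (0.34). The cause of these turns was not tested. In the other alternatives all 7 members kept a negative sign. Cux2 minus Tbr1 was 0.62 and past the threshold on log2 FPKM plus 1, and 0.42 to 0.76 with each library left out, past it without VAR 2. Cux2 minus Fezf2 was 0.0079 to 0.22 with each library left out and never passed. Neurod1, with 132 counts in all VAR and 230 in all SAL libraries, was the member most limited by depth.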
